A study of Mus musculus with 4 samples.

Results

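The genes of the mitochondrial ribosome were examined in cultured fibroblasts, the collagen-making cells of connective tissue, taken from mouse embryos. Members were the genes whose symbol in the platform annotation begins with Mrpl or Mrps and a number, which gave 74 of 12394 named genes. Of these, 47 are Mrpl genes, named for the large subunit, and 27 are Mrps genes, named for the small subunit, and together they are measured by 127 of 22690 probe sets. The series title and design place the arrays in work on germline Npm1 mutations, methylation of ribosomal RNA and the choice of RNAs held on ribosomes. Npm1 encodes nucleophosmin, a nucleolar protein that takes part in assembly of the cytosolic ribosome.

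There were 4 Affymetrix arrays, 1 per group. The groups were total RNA labelled Npm1+/-, total RNA labelled Npm1+/+, ribosome-bound RNA labelled Npm1+/- and ribosome-bound RNA labelled Npm1+/+, all from cells of a strain given as C57/BJ6. Ribosome-bound RNA is called polysome RNA here, Npm1+/- the heterozygote and Npm1+/+ the wild type. No age of embryo, passage, number of embryos or clones, or design of the Npm1 allele is given in the labels. Every value is a single measurement without replicates, so no p-value was computed, and precision is set by how few arrays there are.

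Mitochondria carry their own ribosomes, which translate the few mRNAs encoded by mitochondrial DNA, all of them for membrane proteins of the respiratory chain and ATP synthase. The RNAs of this ribosome come from mitochondrial DNA, whereas all its proteins are encoded in the nucleus, made on cytosolic ribosomes and imported. Some of these proteins have counterparts in bacterial ribosomes and others are found only in mitochondria.

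The level of Npm1 did not separate the genotype labels. Its 2 probe sets read 12.03 and 11.96 in heterozygote-labelled total RNA, against 11.96 and 11.91 in wild-type-labelled total RNA, where loss of 1 of 2 copies would give a difference of 1 on the log2 scale. In polysome RNA they read 12.79 and 12.84 under the heterozygote label, against 12.73 and 12.93 under the wild-type label. Whether either probe set falls within the deleted or disrupted stretch of Npm1 is not stated in the labels, so directions below are between libraries by their labels. All 13 fibroblast markers were at or above the floor on all 4 arrays, while 0 of 4 epithelial markers reached it on any. The floor is the median of all values, 7.53, and a gene was tested where its highest value reached it, which held for 7180 genes and for all 74 members.

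In total RNA most mitochondrial ribosomal protein genes read higher in the library labelled heterozygote. Of the Mrpl genes 43 of 47, and of the Mrps genes 25 of 27, were above 0 in the difference heterozygote minus wild type, beside 66.1% of all genes tested. The Mrpl genes had a median difference of 0.44 and the Mrps genes one of 0.30, beside 0.19 for the median gene. Relative to the median gene, 39 Mrpl and 21 Mrps genes were higher. These are values per array of bulk RNA, in which fewer cells of a type and less RNA per cell cannot be told apart. Markers of macrophages and of fibroblasts were read beside the members. Of 14 macrophage markers 9 were tested, with a median difference of 0.25 in total RNA, 9 above 0 and 6 above the median gene. Only 3 of the 14 reached the floor in total RNA under either label, and the rest of the 9 were tested through their polysome values. Most of these differences in total RNA are thus between values under the floor. The summed linear level over all 14 was 1663 under the heterozygote label against 1373 under the wild-type label. The 13 fibroblast markers had a median of -0.17 with 10 below 0, and a summed level of 101698 under the heterozygote label against 114374 under the wild-type label. The part of these markers in the members' differences was not tested.

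**Figure D1:**
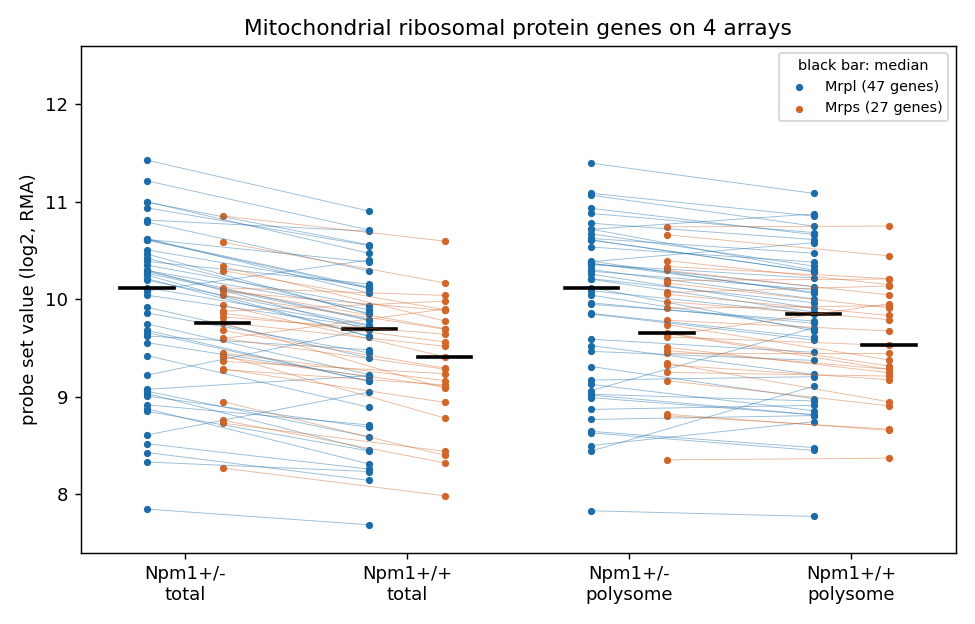
Probe set values (log2) of the 47 Mrpl and 27 Mrps genes on each array, with heterozygote left of wild type in each RNA. Each point is 1 gene, thin lines join the same gene across genotype labels and black bars are medians; most lines run downward to the wild-type label, and more steeply in total RNA.

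The sizes were small, and 4 Mrpl genes and 2 Mrps genes reached 1.5-fold higher, a difference of 0.58, beside 7.42% of all genes tested. Past 1.5-fold lower there were 0 members, beside 6.23%. Mrpl58, a peptidyl-tRNA hydrolase built into the large subunit that releases peptides from stalled mitochondrial ribosomes, read 10.25 under the heterozygote label, against 9.62 under the wild-type label. That is a difference of 0.63, or 1.55-fold higher. Mrpl22 and Mrpl23 belong to proteins that line the exit of the peptide tunnel in ribosomes. Mrpl22 read 10.46 under the heterozygote label, against 9.85 under the wild-type label, a difference of 0.62. Mrpl23 read 10.21 under the heterozygote label and 9.62 under the wild-type label, a difference of 0.59. Mrpl21, whose protein has a bacterial counterpart in the large subunit, read 10.30 under the heterozygote label and 9.69 under the wild-type label, a difference of 0.61. The 1.5-fold calls depend on scaling: with each array centred on its median, quantile normalisation or a loess trend subtracted, 0 members were higher past 1.5-fold. The same scalings put Mrpl42 past 1.5-fold lower, at -0.60, -0.60 and -0.66, and the loess trend also Mrpl33, at -0.60. Mrpl21 fell to 0.16 when its probe sets were averaged, since its other one, below the floor, stood at -0.29. No member reached 2-fold in either direction, beside 0.237% of all genes higher and 1.49% lower.

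Among the Mrps genes, Mrps28 had the greatest difference. It encodes the mitochondrial relative of a bacterial small-subunit protein and read 9.75 under the heterozygote label, against 9.09 under the wild-type label, a difference of 0.67 or 1.59-fold. Mrps25, found only in mitochondria, read 9.43 under the heterozygote label and 8.78 under the wild-type label, a difference of 0.64. Its other probe set at the floor gave 0.83 and its dimmer one, below the floor, 0.42, so all 3 pointed the same way. Mrps6, which has a bacterial counterpart, stood at 0.56, and Mrps35, without one, at 0.55. Next among the Mrpl genes came Mrpl19 at 0.58 and Mrpl47 at 0.57.

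The members with a difference below 0 in total RNA were 4 Mrpl and 2 Mrps genes. Mrpl42, specific to mitochondria, read 9.22 under the heterozygote label, against 9.70 under the wild-type label, a difference of -0.47. Mrpl33, whose small protein has a bacterial counterpart, read 8.61 under the heterozygote label and 9.05 under the wild-type label, a difference of -0.44. These were the lowest of all 74 members, and both were lower in polysome RNA too. Mrps21 stood at -0.30 and Mrps17 at -0.10, and the next lowest Mrps gene, Mrps24, at 0.08. Mrpl52 gave -0.32 at its brightest probe set but 0.06 and -0.005 at its other probe sets above the floor, so its direction depends on the probe set. Mrpl48 gave -0.14 at one probe set and -0.01 at the other.

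**Figure D2:**
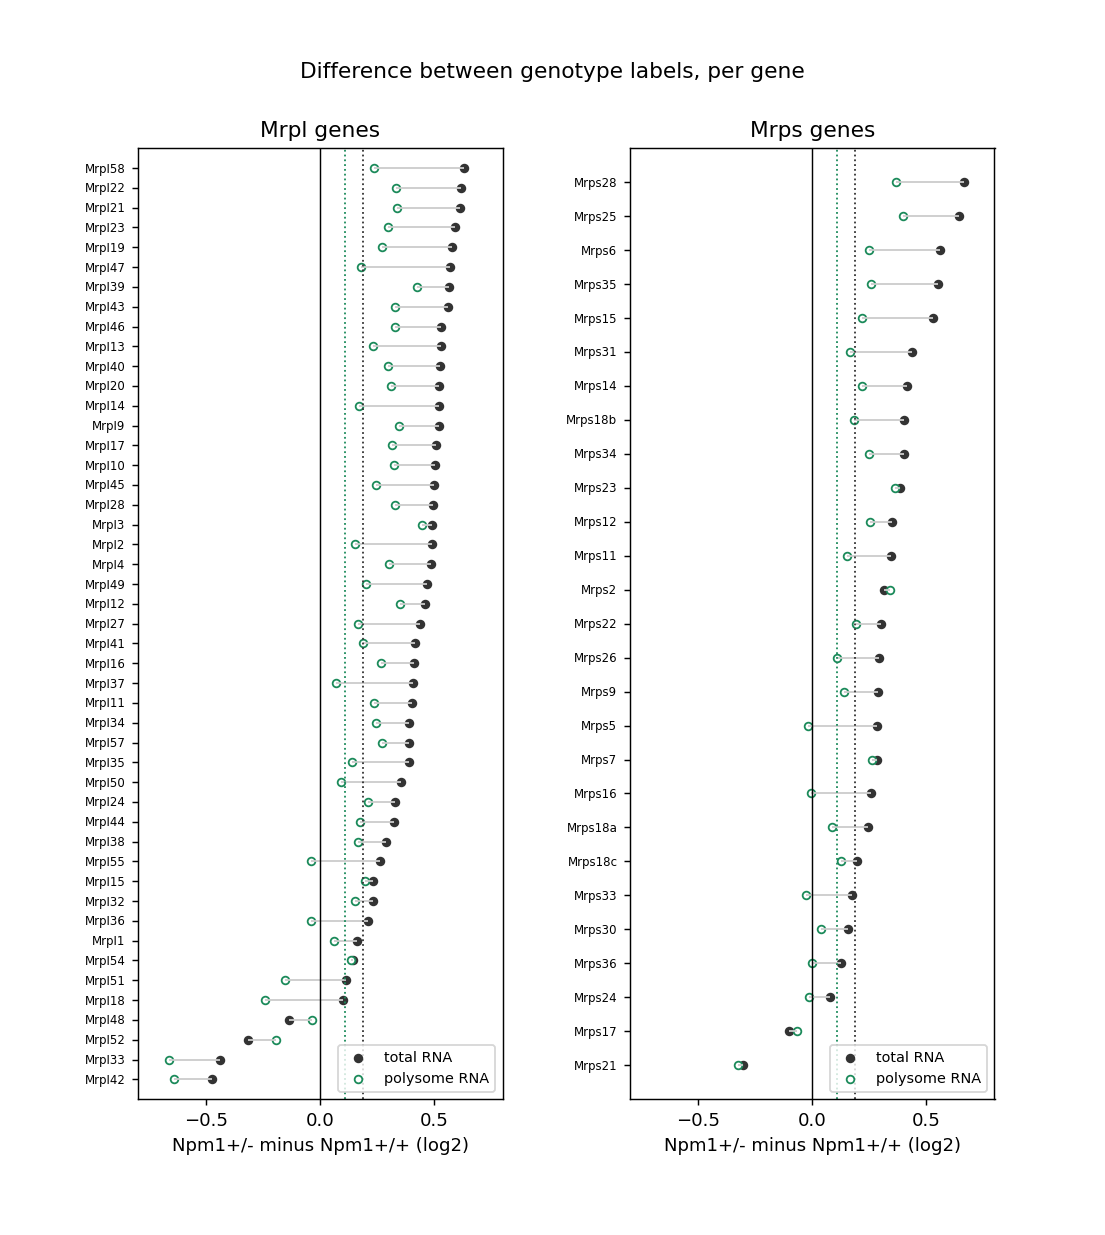
Difference between genotype labels (heterozygote minus wild type, log2) for every Mrpl gene (left) and Mrps gene (right), sorted by total RNA. Filled points are total RNA, open points polysome RNA, and dotted lines mark the median of all genes tested in total RNA (0.19) and in polysome RNA (0.11); most genes lie right of 0 with the open point left of the filled one, and Mrpl33, Mrpl42 and Mrps21 lie left of 0 in both.

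Genes of defined parts of the ribosome were spread through this range. The stalk of the large subunit, which recruits translation factors, includes the products of Mrpl10, Mrpl11 and Mrpl12, and their differences were 0.50, 0.40 and 0.46. Mrpl24, at the tunnel exit with Mrpl22 and Mrpl23, stood at 0.33, and Mrpl45, which helps to hold the ribosome at the inner membrane, at 0.50. Mrps12, the counterpart of a bacterial protein at the decoding centre, stood at 0.35. The related genes Mrps18a, Mrps18b and Mrps18c stood at 0.25, 0.40 and 0.19. Mrps30 stood at 0.16, and its protein, like that of Mrps18a, lies in the large subunit in spite of the name. Mrps36, whose product has been assigned to the alpha-ketoglutarate dehydrogenase complex, stood at 0.13.

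Members with bacterial counterparts are given apart from those without. Among the Mrpl genes the median was 0.47 for 28 with a counterpart and 0.41 for 19 without one. For the Mrps genes it was 0.29 for 17 with a counterpart and 0.34 for 10 without. On chromosome 11, which also carries Npm1, all 11 members were above 0, with a median of 0.44. On other chromosomes 57 of the 63 members were, with a median of 0.39, beside 66.1% of all genes tested on any chromosome. The share among all tested genes of chromosome 11 was not computed, and a part of the place of Npm1 was not tested. The difference ran weakly with the mean level across the 47 Mrpl genes (Pearson r = 0.27, Spearman rho = 0.24) and the 27 Mrps genes (r = -0.18, rho = -0.16), as values across genes that share the same arrays.

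Probe sets of the same gene gave a measure of spread between probe sets, which is not the spread between arrays or cultures. For 2702 genes, 2 or more probe sets reached the floor, and the disagreement of the 2 brightest had an SD of 0.32 in this comparison, and over the 22 members among them 0.19. Of the 74 members 50 had a genotype difference larger in size than 0.32, and 64 one larger than 0.19. All genes tested had a median of 0.19 in this comparison, with quartiles of -0.13 and 0.40. The share of all genes past the same sizes was not computed, so these counts are not read as particular to the members. In total RNA 0 of these 22 members had opposite signs at those probe sets. Mrpl28, with 3 probe sets above the floor, gave 0.50, 0.68 and -0.08. For Mrpl15, with 5 such probe sets, all lay between 0.02 and 0.51.

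The promoters of members at both ends of the total RNA difference are shown. Each window runs from 250 bases before to 50 bases after the RefSeq start of the gene in GRCm38.p6, 5′ to 3′ on the gene's strand. Capitals mark letters found by a search of both strands for CCGGAAG (bound by ETS factors), AANATGGCG (YY1), CCAAT and the NRF1 motif core. The earlier run of capitals in Mrps21 is the NRF1 match. The searched letters do not overlap in these windows. The highest Mrpl genes and Mrps25 follow the naming rule. The lowest gene of each family was added after its values were seen, and Mrps28 had no window in the table used.
Mrpl58, chr11:115403502-115403801, plus strand: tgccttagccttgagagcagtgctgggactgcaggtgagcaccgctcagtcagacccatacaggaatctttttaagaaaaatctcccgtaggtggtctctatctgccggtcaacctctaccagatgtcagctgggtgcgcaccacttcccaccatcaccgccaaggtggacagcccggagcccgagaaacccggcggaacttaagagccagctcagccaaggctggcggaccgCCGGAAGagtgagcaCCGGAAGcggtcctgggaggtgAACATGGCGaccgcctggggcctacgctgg
Mrpl22, chr11:58171414-58171713, plus strand: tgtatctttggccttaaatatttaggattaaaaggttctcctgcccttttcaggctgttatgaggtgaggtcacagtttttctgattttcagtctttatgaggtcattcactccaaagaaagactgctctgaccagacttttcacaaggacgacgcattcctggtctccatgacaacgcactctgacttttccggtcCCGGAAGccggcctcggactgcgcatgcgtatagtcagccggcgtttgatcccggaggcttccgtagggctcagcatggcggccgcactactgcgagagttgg
Mrps25, chr6:92183974-92184273, minus strand: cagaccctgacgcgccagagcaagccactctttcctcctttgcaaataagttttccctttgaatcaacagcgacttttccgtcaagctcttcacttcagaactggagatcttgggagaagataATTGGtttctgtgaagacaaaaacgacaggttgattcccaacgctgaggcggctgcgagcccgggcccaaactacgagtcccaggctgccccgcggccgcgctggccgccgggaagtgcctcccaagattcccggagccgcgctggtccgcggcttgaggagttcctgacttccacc
Mrpl42, chr10:95501900-95502199, minus strand: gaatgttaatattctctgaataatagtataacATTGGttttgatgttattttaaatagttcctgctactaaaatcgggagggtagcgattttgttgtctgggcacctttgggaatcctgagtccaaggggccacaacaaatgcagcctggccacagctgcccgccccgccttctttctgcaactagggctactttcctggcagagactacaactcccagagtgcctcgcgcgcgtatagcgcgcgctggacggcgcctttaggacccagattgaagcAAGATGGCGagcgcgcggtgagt
Mrps21, chr3:95871465-95871764, minus strand: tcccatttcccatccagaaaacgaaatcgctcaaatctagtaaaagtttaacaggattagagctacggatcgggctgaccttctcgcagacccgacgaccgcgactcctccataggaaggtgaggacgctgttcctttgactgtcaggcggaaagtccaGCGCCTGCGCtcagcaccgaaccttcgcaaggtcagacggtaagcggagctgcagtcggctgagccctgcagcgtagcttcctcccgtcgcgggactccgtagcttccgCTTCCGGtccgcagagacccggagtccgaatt

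The ETS letters occurred in Mrpl58, where 2 copies begin at positions -17 and -2 relative to the gene start, in Mrpl22 at position -53, and on the other strand in Mrps21. The YY1 letters occurred in Mrpl58, starting 20 bases after the first base, and in Mrpl42. The promoter table held 65 of the 74 members, of which 62 had 1 window. The ETS letters were in 24 of the 65 members (36.9%), beside 22.2% of 5863 tested genes with a window and 9.93% of all 27025 genes in the table. The YY1 letters were in 10 members (15.4%), beside 6.84% of tested genes and 2.76% of all genes. For NRF1 the count was 12 (18.5%), beside 13.2% and 5.19%, and for CCAAT 25 (38.5%), beside 43.1% and 41.1%. Median GC content was 58.0% in members and 61.6% in tested genes. Members with the ETS letters had a median genotype difference of 0.33 in total RNA, and those without had 0.41. With the YY1 letters it was 0.30, and without 0.40. For NRF1 it ran the other way, at 0.42 with the letters and 0.39 without, and for CCAAT it was 0.35 and 0.40. A part of these letters in the differences was not tested. A match of letters is a description of the window and not a binding site.

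In polysome RNA the members' medians between genotype labels were nearer to 0 than in total RNA. Of the Mrpl genes 39 of 47 and of the Mrps genes 20 of 27 were above 0, beside 62.9% of all genes tested. The Mrpl median was 0.21 and the Mrps median 0.17, beside 0.11 for the median gene. No member reached 1.5-fold higher, beside 2.08% of all genes, and 2 Mrpl genes reached 1.5-fold lower, beside 5.86%.

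Mrpl3, which has a bacterial counterpart near the peptidyl transferase centre, had the highest value of the Mrpl genes. It read 10.12 under the heterozygote label, against 9.68 under the wild-type label, a difference of 0.44. Mrpl39 stood at 0.42, and Mrpl9, Mrpl12, Mrpl21 and Mrpl22 between 0.33 and 0.35. Mrps25 was highest of the Mrps genes, at 9.34 under the heterozygote label and 8.95 under the wild-type label, a difference of 0.40. Mrps28 stood at 0.37, Mrps23 at 0.36 and Mrps2 at 0.34.

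The low end was held by Mrpl33 and Mrpl42. Mrpl33 read 8.44 under the heterozygote label, against 9.11 under the wild-type label, a difference of -0.66 or 1.58-fold lower. Mrpl42 read 9.06 under the heterozygote label and 9.71 under the wild-type label, a difference of -0.64 or 1.56-fold lower. Their other probe sets lay below the floor and gave -0.17 for Mrpl33 and -0.07 for Mrpl42, and with probe sets averaged both genes fell under the floor and were not tested, at -0.42 for Mrpl33 and -0.36 for Mrpl42. Mrpl18 stood at -0.24, although it was at 0.10 in total RNA. Mrps21 stood at -0.33, Mrps17 at -0.07 and Mrps33 at -0.03. Mrps36 read 9.45 under both labels. The macrophage markers had a median of 0.27 in polysome RNA, with 7 of 9 above 0, and the fibroblast markers one of -0.18, with 10 of 13 below 0. Among these 9, C1qc and Cd53 reached the floor only in heterozygote-labelled polysome RNA, at 7.57 and 7.68. Both were thus tested through the label under which they were higher, which favours values above 0.

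Most members held their direction across the RNAs. Higher in both were 39 Mrpl and 20 Mrps genes, 79.7% of members beside 58.3% of all genes tested. Lower in both were 4 Mrpl and 2 Mrps genes, 8.11% of members beside 28.9% of all genes tested. Another 4 Mrpl and 4 Mrps genes were above 0 in total RNA and below it in polysome RNA, 10.8% of members beside 7.58% of all genes. The other way round there were 0 members, beside 4.55% of all genes. Across members the differences in total and polysome RNA, which share no array, had r = 0.89 and rho = 0.80 (n = 74), beside r = 0.91 over all genes tested. The labels do not say whether total and polysome RNA were taken from one culture, so this is no replication.

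**Figure D3:**
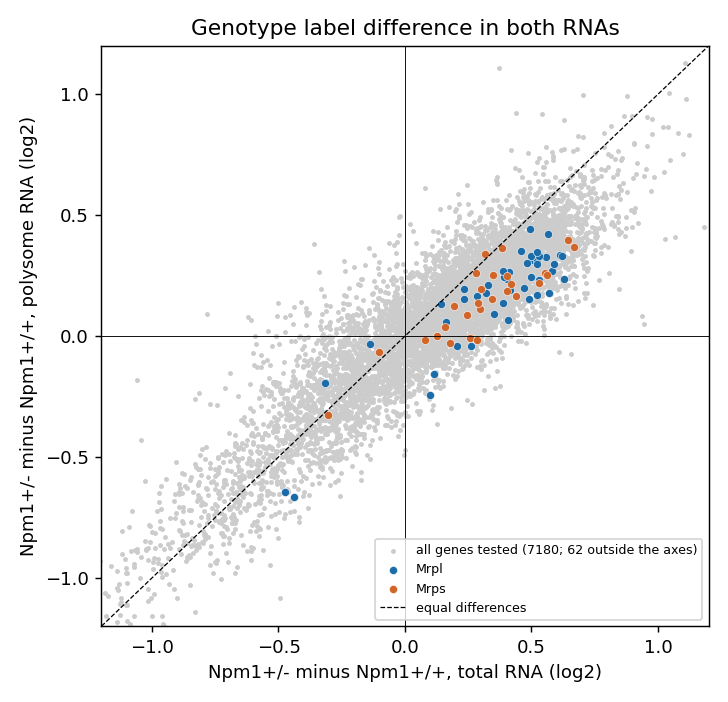
Difference between genotype labels (heterozygote minus wild type, log2) in total RNA (x axis) and polysome RNA (y axis) for Mrpl genes, Mrps genes and all genes tested (grey). Points below the dashed line of equal differences have a smaller value in polysome RNA, where most members lie. On both axes 6 members (8.11%) lie below 0, beside 28.9% of all genes tested.

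Genes that act on or with the mitochondrial ribosome but are named otherwise were read beside it. Of 7 symbols listed for other proteins of this ribosome, 4 were on the array and at the floor. Among the rest, Ict1 and Mrp63 are earlier symbols of Mrpl58 and Mrpl57, which are already counted as members. The differences in total RNA were 0.52 for Gadd45gip1, 0.36 for Chchd1, 0.21 for Dap3 and -0.42 for Ptcd3. Assembly factors had a median of 0.33 in total RNA over 16 genes, with 14 above 0 and 9 above the median gene. In polysome RNA their median was 0.08, beside 0.11 for the median gene, with 6 above the median gene and 10 below it. Rcc1l, an assembly factor of the large subunit, was the one past 1.5-fold in total RNA. It read 8.14 there under the heterozygote label against 7.30 under the wild-type label, a difference of 0.85. The wild-type value lies under the floor, and in polysome RNA the difference was 0.20.

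The translation factors and the tRNA synthetases of mitochondria lay lower. Of 10 factors 5 were measured, with a median of -0.19 in total RNA, 4 below 0 and 0 above the median gene. Gfm1, the elongation factor that moves the ribosome along the mRNA, read 8.76 under the heterozygote label, against 9.52 under the wild-type label, a difference of -0.76, and in polysome RNA it stood at -0.78. Tufm, which brings charged tRNAs to the ribosome, stood at -0.19 and -0.14. Of 17 synthetases 8 were on the array and 6 were tested, with a median of -0.05 in total RNA and 3 above 0. They ran from -1.03 for Iars2 to 0.38 for Fars2. The cytosolic ribosomal protein genes had medians of -0.20 in total RNA and -0.32 in polysome RNA, with 38 and 41 of 47 below 0. The other lists are small or differ in kind from the members, and the differences between lists were not tested.

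**Figure D4:**
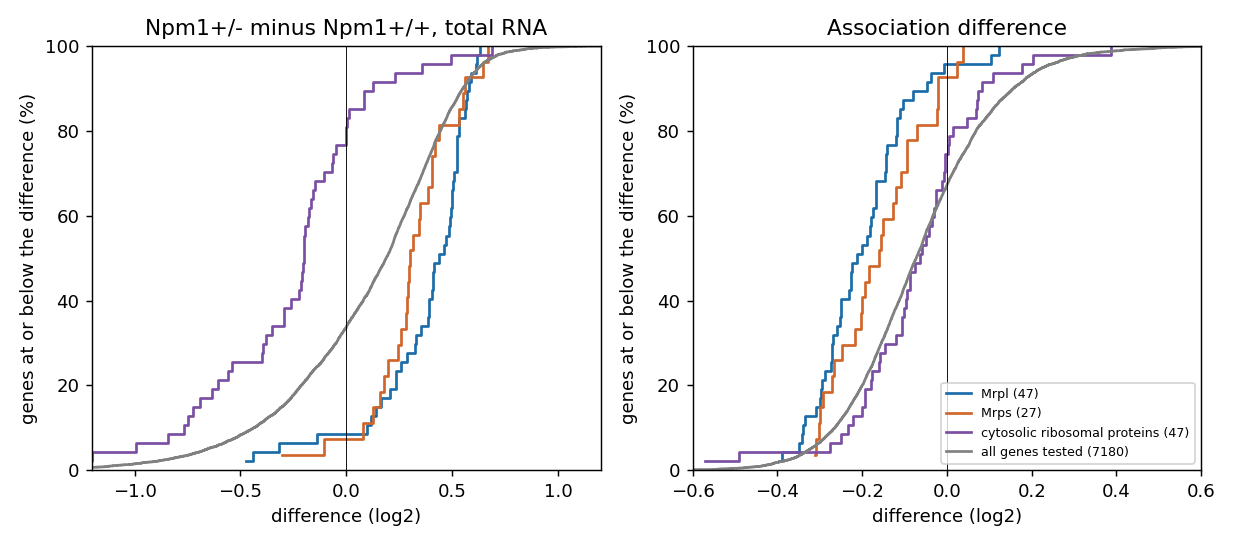
Share of genes (%, y axis) at or below a given log2 difference (x axis) for the genotype difference in total RNA (left) and the association difference (right). Mrpl and Mrps curves lie right of the curve of all genes over most of its range at left and left of it at right, and the cytosolic ribosomal protein curve lies left of it at left and near it at right.

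The comparison between polysome and total RNA concerns how far each mRNA is held on ribosomes. Under the heterozygote label the Mrpl genes showed little difference, with a median of -0.02 and 20 of 47 above 0, and the Mrps genes had a median of 0.06 with 19 of 27 above 0. These medians changed sign under other settings, to 0.037 for Mrpl when probe sets were averaged and to -0.0060 for Mrps with quantile normalisation. Beside them the median gene was at 0.07 and 65.1% of all genes were above 0. Under the wild-type label the medians were 0.18 for Mrpl and 0.19 for Mrps, with 43 of 47 and 27 of 27 above 0, beside 0.14 and 75.6% for all genes. No member reached 1.5-fold under either label, where 2.24% of all genes were that much higher and 1.35% lower under the heterozygote label, and 3.65% and 1.56% under the wild-type label.

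Under the heterozygote label the highest Mrpl genes were Mrpl52 at 0.30, Mrpl39 at 0.30 and Mrpl15 at 0.27, and the lowest Mrpl47 at -0.25, Mrpl27 at -0.22 and Mrpl10 at -0.19. Of the Mrps genes Mrps18c (0.26), Mrps35 (0.22) and Mrps17 (0.19) were highest and Mrps18a (-0.15), Mrps18b (-0.13) and Mrps16 (-0.11) lowest. The 3 Mrps18 relatives thus lay at both ends of that family. Mrpl15 gave values between -0.42 and 0.27 at its 5 probe sets, and Mrpl52 between -0.08 and 0.30 at 3, and Mrpl39 stood at -0.00082 at its other one, so none of these directions is settled.

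Under the wild-type label the highest were Mrpl14 (0.55), Mrpl55 (0.55) and Mrpl37 (0.51) among the Mrpl genes, and Mrps35 (0.51), Mrps15 (0.42) and Mrps5 (0.39) among the Mrps genes. Mrpl14 read 9.78 in polysome RNA, against 9.23 in total RNA. Mrpl3 (-0.12), Mrpl54 (-0.03) and Mrpl48 (-0.01) were the lowest of the Mrpl genes, and Mrps18a (0.01), Mrps2 (0.03) and Mrps21 (0.05) of the Mrps genes. At its other probe set at the floor Mrpl3 gave 0.21, Mrpl48 0.13, Mrps15 -0.06 and Mrps2 -0.02.

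Of the 22 members with 2 probe sets at the floor, 10 had opposite signs at the brightest pair under the heterozygote label and 4 under the wild-type label. Over all 2702 genes the disagreement of such pairs had an SD of 0.24 under the heterozygote label and 0.28 under the wild-type label. Macrophage markers differed in how they moved with the fraction labels. Of the 9 tested, most through their polysome values, 8 were above 0 under the heterozygote label and 9 under the wild-type label. Csf1r stood at -0.22 under the heterozygote and 0.05 under the wild-type label, and Laptm5 at 0.04 and 0.14. Ptprc, under the floor, stood at -0.32 and -0.21. The summed linear level over all 14 macrophage markers was 4178 in polysome RNA against 1663 in total RNA under the heterozygote label, and 3196 against 1373 under the wild-type label. Of these markers 9 were at the floor in polysome RNA against 3 in total RNA under the heterozygote label, and 7 against 3 under the wild-type label. The summed level of 13 fibroblast markers was 112882 in polysome RNA against 101698 in total RNA under the heterozygote label, and 119514 against 114374 under the wild-type label. Their part in the members' differences between RNAs was not tested.

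**Figure D5:**
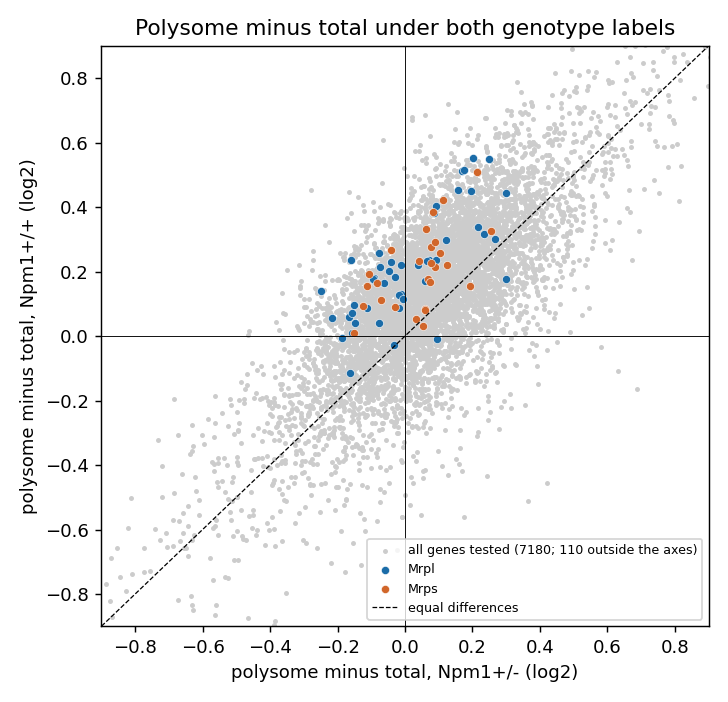
Polysome minus total RNA (log2) under the heterozygote label (x axis) and the wild-type label (y axis) for Mrpl genes, Mrps genes and all genes tested (grey). Most members lie above the dashed line of equal differences. Left of 0 and above 0 lie 32 of 74 members (43.2%), beside 17.4% of all genes tested. These have a lower polysome value under the heterozygote label and a higher one under the wild-type label.

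The series design asks whether the genotype changes association with ribosomes. That is the association difference, polysome minus total under the heterozygote label minus the same under the wild-type label. It was below 0 for 45 of 47 Mrpl and 25 of 27 Mrps genes, beside 67.1% of all genes tested. The Mrpl median was -0.21 and the Mrps median -0.16, beside -0.07 for the median gene, and 42 Mrpl and 21 Mrps genes lay below the median gene. The association difference of cytosolic ribosomal protein genes had a median of -0.06, with 35 of 47 below 0.

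No member reached 1.5-fold in the association difference, where 0.139% of all genes were that much lower and 0.167% higher. Mrpl58 was lowest at -0.40, since it read 10.25 in total and 10.09 in polysome RNA under the heterozygote label, against 9.62 and 9.85 under the wild-type label. Mrpl47 followed at -0.39 and Mrpl14 at -0.35. In the small subunit Mrps15 and Mrps6 stood at -0.31 and Mrps5 at -0.30. At the upper end were Mrpl52 (0.12), Mrpl48 (0.10) and Mrpl54 (-0.01), and Mrps17 (0.04), Mrps2 (0.02) and Mrps21 (-0.02).

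The probe sets limit what can be said of single genes here. Their SD was 0.22 over 2702 genes and 0.19 over the 22 members, about the size of the medians, and 6 of the 22 members had opposite signs at their brightest pair. Mrpl52 gave -0.27 and -0.21 at its other probe sets above the floor, and Mrpl28 gave -0.17, -0.37 and 0.35. Mrps2 gave -0.06 at its other probe set, and Mrps23 gave -0.02 at one and -0.41 at the other. At their other probe sets at the floor Mrps15 gave -0.07 and Mrps5 -0.37. Because the same 4 values form every comparison, a lower value of total RNA under the wild-type label enters both the genotype difference in total RNA and the association difference, and the results on these are not independent of each other.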

How the data were processed

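Values were taken from the deposited table of log2 values, 1 per probe set and array, made by the authors. They were made with RMA in affy 1.56.0 under R 3.4.3, per the submitters' processing notes. RMA corrects background, normalises between arrays and summarises probes. Its settings are not given in the sources used here. Probe sets with 1 gene symbol (20393) were named and 691 with several were left out, among them 3 that name a member, so Mrpl30 and Mrpl53 were not analysed here, nor Mrps10 and Mrps27, which have no symbol in the annotation used. A gene was represented by the probe set whose mean across arrays was highest.

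Differences of log2 values were computed with Python 3.11.15, numpy 2.4.6 and pandas 2.3.3, and tested on simulated data. Genes named are the highest 6 Mrpl and 4 Mrps and lowest 3 of each per genotype comparison, 3 each way elsewhere, members past 1.5-fold, members whose probe sets disagree in sign, of which examples are given, and the role groups. The part of the rule on bright and dim members was not used, since levels of different probe sets are not comparable. Promoters and symbols came from RefSeq (GRCm38.p6), in which all 74 symbols matched by Entrez number. Protein length could not be read from the tables used here. Members and lists were chosen with earlier results of these data known. The alternatives were other choices of probe set, floor, scaling and fold.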

Additional observations from a re-analysis of the deposited data

Results flagged for a closer look

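With 1 array per group, single members were picked out where the same contrast had opposite signs under both labels and the association difference exceeded 0.22, the SD of the disagreement between probe sets. None of these differences was tested. In both sets below, the signs asked for fix the association difference below 0. The share of all genes meeting the full rule was not computed. Above 0 in total RNA and below it in polysome RNA, without the limit of 0.22, were 10.8% of members, beside 7.58% of all genes. In 6 members the genotype difference was above 0 in total RNA and below 0 in polysome RNA, with association differences of -0.34 for Mrpl18, -0.30 for Mrpl55, -0.30 for Mrps5, -0.27 for Mrpl51, -0.27 for Mrps16 and -0.25 for Mrpl36.

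Polysome minus total was below 0 under the heterozygote label and above 0 under the wild-type label in 43.2% of members, beside 17.4% of all genes. The members of this kind past the limit of 0.22 formed a larger set. The association differences there were -0.40 for Mrpl58, -0.39 for Mrpl47, -0.34 for Mrpl2, -0.29 for Mrpl22, -0.27 for Mrpl21, -0.27 for Mrpl27, -0.27 for Mrpl49, -0.27 for Mrpl51, -0.26 for Mrpl50, -0.25 for Mrpl35 and -0.25 for Mrpl36. They were -0.23 for Mrpl40, -0.23 for Mrpl41, -0.23 for Mrpl43 and -0.22 for Mrpl33. Among the Mrps genes they were -0.31 for Mrps6, -0.30 for Mrps28, -0.27 for Mrps16 and -0.25 for Mrps25. Mrpl49, Mrpl50, Mrpl41 and Mrps25 had a second probe set at the floor with polysome minus total above 0 under the heterozygote label, at 0.21, 0.12, 0.15 and 0.11.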

How the results depend on the processing

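The Mrpl and Mrps medians kept their sign under all 7 alternatives of probe set, floor and scaling in both genotype comparisons, under the wild-type fraction comparison and in the association difference. In total RNA they ranged from 0.25 to 0.49 for Mrpl and from 0.14 to 0.30 for Mrps, and in the association difference from -0.21 to -0.12 and from -0.18 to -0.08. Polysome minus total under the heterozygote label did not hold its sign: the Mrpl median was 0.037 when probe sets were averaged, and the Mrps median -0.0060 with quantile normalisation and -0.0061 with the loess trend subtracted. The 3 scalings put the median gene in total RNA between 0.03 and 0.08, against 0.19 as reported, and relative to it the Mrpl median lay between 0.21 and 0.25 and the Mrps median between 0.11 and 0.12. Over all 7 alternatives, in which the median gene ranged from 0.02 without a floor to 0.23 with the stricter one, these relative medians lay between 0.21 and 0.42 for Mrpl and between 0.07 and 0.28 for Mrps.

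Counts past 1.5-fold depended on the setting. With each array centred on its median, quantile normalisation or the loess trend subtracted, 0 Mrpl and 0 Mrps genes were higher in total RNA and 1, 1 and 2 Mrpl genes lower, against 0 as reported. At 2-fold, 0 members were called in any of these. In polysome RNA the 2 lower Mrpl genes became 1 with the stricter floor (9.33), since Mrpl33 at 9.11 was no longer tested, and 0 with the mean of all probe sets, since the averages of Mrpl33 and Mrpl42 fell under the floor of 7.53, which left 68 members. Mrpl genes above the median gene in the association difference numbered 13 when probe sets were averaged and 3 without a floor, against 5. Mrpl21 moved to 0.16 in total RNA with the mean of all probe sets. No paired analysis was possible because there is 1 array per group. No detection calls were used, so signal over background was not measured.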
